A study of Rattus norvegicus with 11 samples.

Results

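The solute carrier genes examined here encode membrane proteins that move sugars, amino acids, ions, lipids, metals and other small molecules across cell and organelle membranes. A gene was included when a probe set annotated to exactly 1 gene carried a symbol beginning with Slc and a digit. The 12 mitochondrial Slc25 genes and Slc2a1, Slc12a2 and Slc34a1 were left out, and each gene was represented by its probe set of highest mean signal across the 11 arrays. This gave 105 genes of the 4736 measured. The rule itself uses no difference between groups, though it was written with earlier results of these data known. The 105 genes came from 154 probe sets, with 1 probe set for 68 genes and 2 to 5 for the other 37.

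The arrays held total RNA from rat alveolar epithelium. There were 4 arrays of freshly isolated type I (TI) cells and 4 of freshly isolated type II (TII) cells, both on day 0, and 3 of TII cells cultured to day 7. Groups follow the sample descriptions and titles, since the source field calls every sample isolated TI cells. Strain, age, sex, genotype, medium and isolation method are not given in the labels, and no treatment other than culture is named. Separate animals or cultures are not named for the arrays within a group, so each p-value measures only the spread between these arrays. In bulk RNA of this kind, fewer cells of a type and less RNA per cell cannot be told apart.

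TI cells are thin and form most of the gas exchange surface, while TII cells make surfactant and can give rise to TI cells, a change that TII cells in culture partly follow. Alveolar epithelium moves salt and water out of the airspace and recovers glucose, amino acids and small peptides from the lining fluid, and many of these steps run on carriers driven by the sodium or proton gradient. TII cells also take up choline and fatty acids for surfactant synthesis, and export or take up lactate through proton-coupled carriers.

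Signal is the deposited log2 value of a probe set, without a known absolute scale, so levels are compared between groups and not between genes. A difference is the difference of group means on that scale, ± the standard error of the linear model, over 4, 4 and 3 arrays of fresh TI, fresh TII and cultured cells. A gene was called when its adjusted p was under 0.05. Array medians lay between 5.43 and 5.51. The standard deviation over probe sets was 1.77 to 1.85 on fresh TI, 1.92 to 1.95 on fresh TII and 1.95 to 1.97 on cultured arrays. All 5 measured TI markers were higher in fresh TI than in fresh TII cells, and all 8 measured TII markers were lower. The summed log2 signal of the TII markers was 66.1 to 73.9 in fresh TI, 87.7 to 89.0 in fresh TII and 51.9 to 56.1 in cultured cells.

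Between the fresh cell types, 39 of the 105 solute carrier genes were called higher in TI cells and 17 lower, which is 37.1% and 16.2%, against 33.0% and 21.2% of all genes. Large differences ran mostly the other way. Only 2 members were called and at least 1.5-fold higher in TI cells (1.9%, against 4.6% of all genes), and 7 were at least 1.5-fold lower (6.67%, against 10.7%). The 2 became 4 with quantile normalization, and 1 with standard deviations matched or without dim probe sets. The median difference was 0.18 over the members and 0.11 over all genes. After the median and standard deviation of the arrays were matched, 37 members were called higher and 20 lower, and the median of all genes moved to 0.05.

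In culture, 12 members were called higher than in fresh TII cells and 13 lower. These are 11.4% and 12.4% of the members, against 20.5% and 14.0% of all genes. Of them, 7 were at least 1.5-fold higher (6.67%, against 10.8%) and 6 at least 1.5-fold lower (5.71%, against 7.05%). The 7 were Slc16a3, Slc6a6, Slc12a7, Slc3a1, Slc15a4, Slc19a1 and Slc1a3. The 6 were Slc15a2, Slc6a20a, Slc44a4, Slc37a1, Slc16a6 and Slc4a4.

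Fresh TI cells set directly against cultured TII cells had 45 members higher and 16 lower, 42.9% and 15.2%, against 34.2% and 25.8% of all genes. At 1.5-fold or more, 4 were higher (3.81%, against 5.64%) and 9 lower (8.57%, against 15.0%). The 4 became 1 with median centring and 7 with quantile normalization. Of the 105 members, 27 were called in none of the comparisons, near the 24.0% of all genes. The comparisons share arrays, so their values are given side by side and are not independent of each other.

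**Figure D1:**
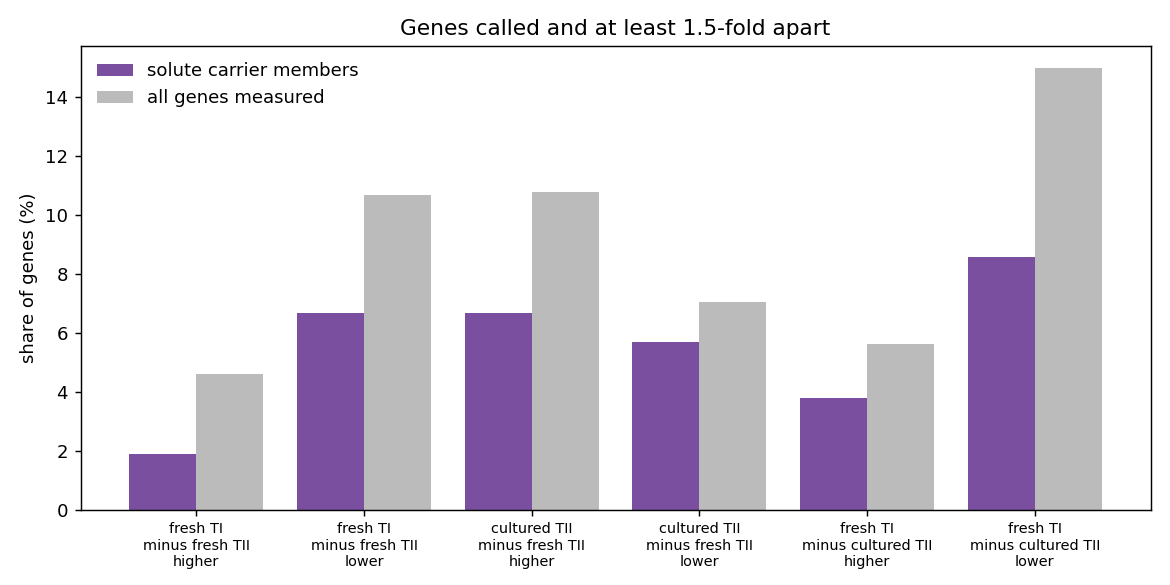
Share of genes (%, vertical axis from 0) that were called and at least 1.5-fold higher or lower in each of the 3 comparisons, for the 105 solute carrier genes and for all 4736 genes. With the values as deposited, the solute carrier share was below the share of all genes in each of the 6 pairs of bars, for example 6.67% against 10.8% for genes higher in culture.

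Slc15a2, Slc37a1, Slc44a4, Slc6a20a and Slc16a6, carriers of different substrates, had their highest signal in fresh TII cells. These 5 stood lower by more than 1.5-fold in both other groups. Without the fold limit, 6 of the 105 members were called lower in both and not called between TI and cultured cells. Another 2 were lower in both and higher in TI than in cultured cells. Over all genes these patterns held 4.73% and 2.24%. A further 1.94% were lower in both and lower in TI than in cultured cells, a pattern of no member. Being lower in both groups was thus not particular to carriers. Its share at 1.5-fold was not counted over all genes. Slc15a2 is the high-affinity proton-coupled carrier of di- and tripeptides. Its signal was 5.34, 5.54, 5.58 and 5.41 on the fresh TII arrays, 4.38, 4.51, 4.32 and 4.30 on the fresh TI arrays, and 3.84, 4.02 and 4.04 on the cultured arrays. The groups did not overlap, and the cultured arrays were the lowest. The difference from fresh TII was -1.09 ± 0.08 in TI cells (2.13-fold, adjusted p = 2.17e-07) and -1.50 ± 0.09 in culture (2.83-fold, adjusted p = 2.1e-08). Fresh TI cells stayed above cultured cells by 0.41 ± 0.09 (adjusted p = 0.00149).

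Slc37a1 encodes an exchanger of glucose 6-phosphate for phosphate in the endoplasmic reticulum membrane. Its values were 7.18, 7.08, 7.16 and 7.14 in fresh TII cells, 6.11, 6.06, 6.14 and 6.16 in fresh TI cells, and 6.14, 6.0 and 5.98 in culture. Every fresh TII array lay above every other array, while the TI and cultured arrays overlapped. The differences from fresh TII were -1.02 ± 0.06 (adjusted p = 4.26e-08) in TI cells and -1.10 ± 0.07 (adjusted p = 4.39e-08) in culture. TI and cultured cells differed by 0.08 ± 0.07 (adjusted p = 0.343).

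Slc44a4 belongs to the choline transporter-like family. Its signal was 7.94, 8.07, 7.66 and 7.94 in fresh TII, 6.86, 6.80, 6.91 and 6.73 in fresh TI and 7.08, 6.74 and 6.60 in cultured cells. Again the fresh TII arrays stood alone at the top. It was lower, at -1.08 ± 0.11 in TI cells (adjusted p = 5.54e-06) and at -1.10 ± 0.12 in culture (adjusted p = 8.97e-06).

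Slc6a20a carries proline and other imino acids with sodium and chloride. Fresh TII arrays gave 6.53, 6.50, 6.69 and 6.72, fresh TI arrays 5.64, 5.45, 5.67 and 5.72, and cultured arrays 5.52, 5.53 and 5.31. The fresh TII values did not overlap with either group. The difference was -0.99 ± 0.08 in TI cells (adjusted p = 1.01e-06) and -1.16 ± 0.09 in culture (adjusted p = 4.43e-07).

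Slc16a6, a member of the monocarboxylate carrier family, was dimmer. It gave 4.60, 4.35, 4.79 and 4.41 in fresh TII, 3.90, 3.92, 3.68 and 3.82 in fresh TI and 3.74, 3.63 and 3.71 in cultured cells. These groups also did not overlap with fresh TII. The differences were -0.71 ± 0.10 (adjusted p = 6.56e-05) and -0.85 ± 0.10 (adjusted p = 2.67e-05).

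Airway markers were mixed. Secretoglobin Scgb1a1, the defining product of airway club cells, had mean signals of 11.02 in fresh TII, 7.71 in fresh TI and 8.40 in cultured cells. Over the 7 measured airway markers the summed log2 signal was 51.9 to 52.7 in fresh TII, 42.5 to 43.3 in fresh TI and 40.1 to 42.5 in cultured cells. Of the 7, Scgb1a1, Aldh1a1, Cyp2f4 and Foxj1 were called lower in TI cells and in culture (57.1%, against 21.2% and 14.0% of all genes). The other 3 were called higher in TI cells (42.9%, against 33.0%): Krt5 by 0.45 ± 0.10, Krt14 by 0.60 ± 0.10 and Muc5ac by 0.34 ± 0.07. None of these 3 was called in culture. Their part in the signal of these carriers was not tested.

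Promoters are shown for the 3 of these genes with the largest differences in TI cells, since their signal was highest in the same group. They are the 250 bases before the annotated start in RefSeq, build GRCr8, read in the direction of the gene. Slc15a2 lies at chr11:77519315-77519564 on the + strand, Slc37a1 at chr20:9379932-9380181 on the + strand, and Slc44a4 at chr20:3923855-3924104 on the - strand. Capitals mark matches on either strand to the core of the hypoxia response element (ACGTG), the AP-1 site (TGANTCA), the core bound by the lung factor NKX2-1 (CTCAAG) and the GC box (GGGCGG). Matches may overlap.
Slc15a2: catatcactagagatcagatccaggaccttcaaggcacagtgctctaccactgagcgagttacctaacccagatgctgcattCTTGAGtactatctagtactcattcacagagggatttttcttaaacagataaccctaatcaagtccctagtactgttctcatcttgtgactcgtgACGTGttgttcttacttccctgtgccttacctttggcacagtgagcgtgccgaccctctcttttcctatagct
Slc37a1: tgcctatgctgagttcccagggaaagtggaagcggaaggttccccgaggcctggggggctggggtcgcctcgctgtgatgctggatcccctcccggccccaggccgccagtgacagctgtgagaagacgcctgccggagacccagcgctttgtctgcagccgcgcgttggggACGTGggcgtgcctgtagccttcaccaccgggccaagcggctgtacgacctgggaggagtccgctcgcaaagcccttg
Slc44a4: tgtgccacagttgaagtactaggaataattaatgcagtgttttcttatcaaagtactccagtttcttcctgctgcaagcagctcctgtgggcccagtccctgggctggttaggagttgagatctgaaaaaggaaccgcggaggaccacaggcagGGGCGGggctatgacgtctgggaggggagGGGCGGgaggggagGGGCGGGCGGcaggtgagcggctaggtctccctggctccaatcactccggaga
No motif of the 4 was found in all 3 windows. Slc15a2 held ACGTG 73 to 69 bases and the NKX2-1 core 168 to 163 bases before the start, Slc37a1 held ACGTG 78 to 74 bases before it, and Slc44a4 held 4 GC boxes. A match is a description of the letters and not of binding.

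**Figure D2:**
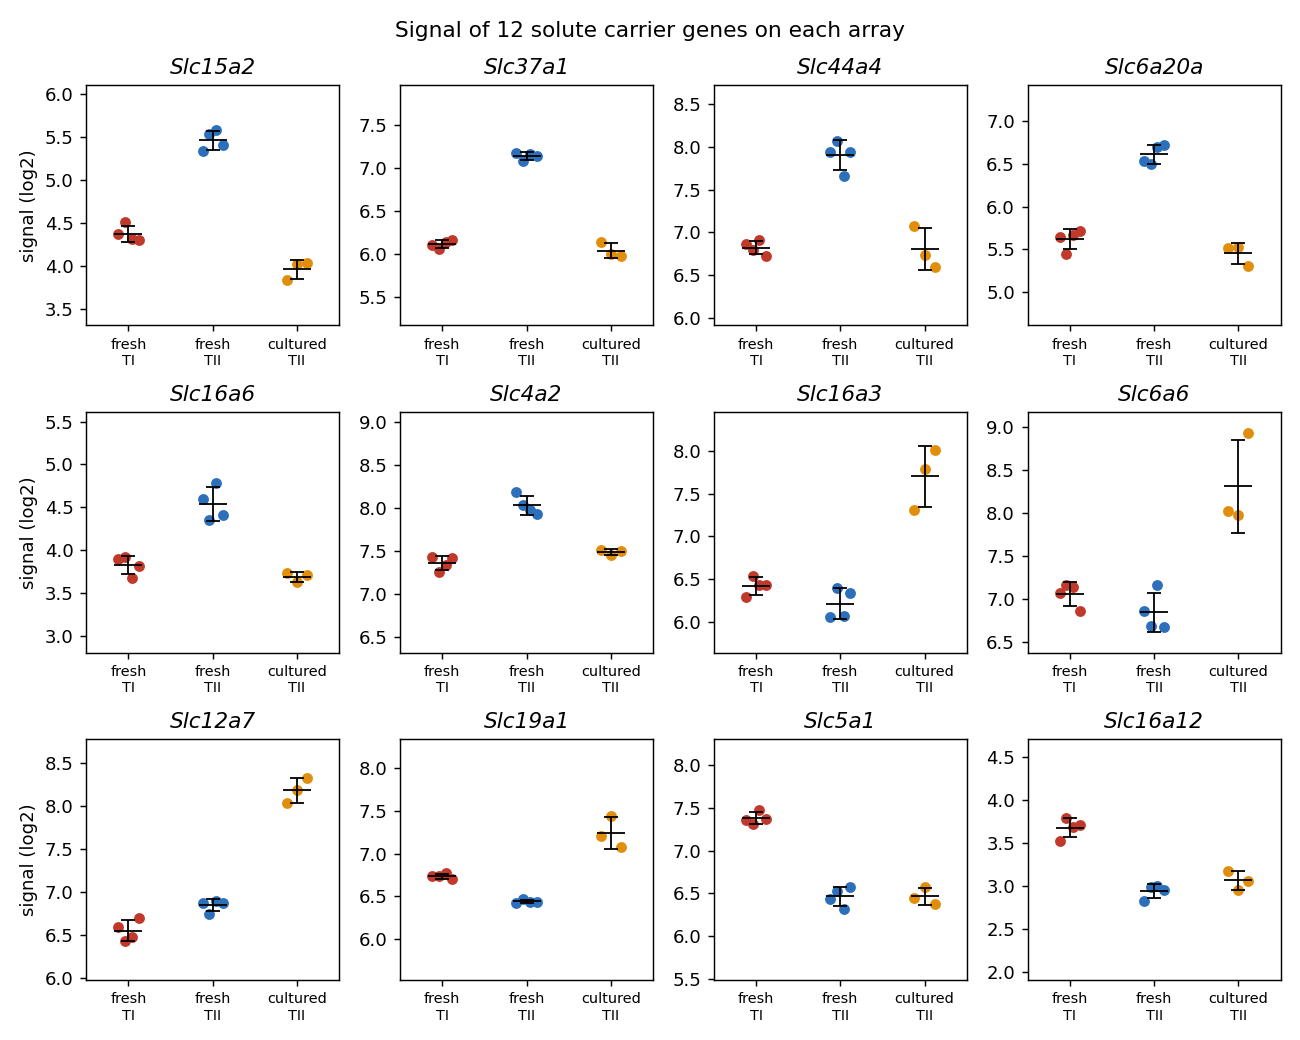
Signal (log2, vertical axes of equal span) of 12 solute carrier genes on each fresh TI, fresh TII and cultured TII array. Points are arrays, the horizontal tick is the group mean and the bar is ± 1 SD; Slc15a2, Slc37a1, Slc44a4, Slc6a20a, Slc16a6 and Slc4a2 have every fresh TII array above all others, Slc16a3, Slc6a6, Slc12a7 and Slc19a1 every cultured array, and Slc5a1 and Slc16a12 every fresh TI array.

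Carriers of lactate, taurine and potassium chloride had the largest rises in culture on the brightest probe set of each gene. A dimmer probe set of Slc1a3 rose more, by 1.89 ± 0.13. Slc16a3 encodes the low-affinity monocarboxylate carrier known for lactate export from glycolytic cells. Its values were 6.06, 6.40, 6.07 and 6.34 in fresh TII, 7.31, 7.78 and 8.01 in cultured and 6.29, 6.54, 6.43 and 6.44 in fresh TI cells. All cultured arrays lay above all fresh arrays, and the fresh groups overlapped. It rose by 1.48 ± 0.14 in culture (2.80-fold, adjusted p = 3.31e-06), and TI cells differed from fresh TII by 0.21 ± 0.13 (adjusted p = 0.2).

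Slc6a6 is the sodium-dependent taurine carrier. Its signal was 6.85, 6.68, 7.16 and 6.67 in fresh TII, 8.02, 7.97 and 8.93 in cultured and 7.07, 7.16, 7.13 and 6.85 in fresh TI cells. Cultured array 3 was the highest by a wide margin, and the others were still above every fresh array. The rise was 1.47 ± 0.20 (2.77-fold, adjusted p = 7.59e-05).

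Slc12a7 couples potassium to chloride export. It was one of a pair of members called in opposite directions, lower in TI cells and higher in culture. Fresh TII arrays gave 6.87, 6.74, 6.89 and 6.87, fresh TI arrays 6.59, 6.43, 6.47 and 6.70, and cultured arrays 8.03, 8.19 and 8.32. No groups overlapped, with TI lowest and culture highest. The differences from fresh TII were -0.30 ± 0.08 (adjusted p = 0.00973) and 1.34 ± 0.09 (2.53-fold, adjusted p = 9.1e-08). Between TI and cultured cells the difference was -1.63 ± 0.09 (3.10-fold, adjusted p = 1.94e-08), the largest of any member on its brightest probe set.

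Slc3a1, the heavy subunit of the cystine and dibasic amino acid exchanger, gave 5.19, 5.71, 5.44 and 5.75 in fresh TII, 6.26, 6.41 and 6.55 in cultured and 5.57, 5.72, 6.05 and 5.66 in fresh TI cells, a rise of 0.88 ± 0.14 (adjusted p = 0.000319). Slc15a4, a peptide and histidine carrier of lysosomes, gave 5.59, 5.52, 5.50 and 5.34 in fresh TII, 6.07, 6.32 and 6.49 in cultured and 5.63, 5.81, 5.64 and 5.72 in fresh TI cells, a rise of 0.81 ± 0.10 (adjusted p = 2.89e-05). The cultured arrays were above all fresh arrays for both genes. Within the peptide carriers, Slc15a4 thus rose in culture while Slc15a2 fell.

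Slc19a1, the reduced folate carrier, gave 6.42, 6.47, 6.44 and 6.44 in fresh TII, 6.74, 6.74, 6.77 and 6.70 in fresh TI and 7.20, 7.44 and 7.08 in cultured cells. The groups formed 3 separate steps. It was higher than in fresh TII by 0.30 ± 0.08 in TI cells (adjusted p = 0.00563) and by 0.80 ± 0.08 in culture (adjusted p = 4.87e-06). Its other probe set gave 0.32 ± 0.09 and 0.92 ± 0.09.

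Promoters of the genes with the largest rises on their brightest probe sets are shown next, with the same marks. They can be compared with those of the genes high in fresh TII cells. In GRCr8, Slc16a3 lies at chr10:106712078-106712327 on the + strand, Slc6a6 at chr4:125752252-125752501 on the + strand and Slc12a7 at chr1:31354626-31354875 on the - strand.
Slc16a3: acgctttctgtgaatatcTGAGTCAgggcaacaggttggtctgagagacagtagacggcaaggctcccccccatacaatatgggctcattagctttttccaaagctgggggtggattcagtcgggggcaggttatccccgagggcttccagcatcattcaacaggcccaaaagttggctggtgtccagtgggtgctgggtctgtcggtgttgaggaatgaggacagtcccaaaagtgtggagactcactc
Slc6a6: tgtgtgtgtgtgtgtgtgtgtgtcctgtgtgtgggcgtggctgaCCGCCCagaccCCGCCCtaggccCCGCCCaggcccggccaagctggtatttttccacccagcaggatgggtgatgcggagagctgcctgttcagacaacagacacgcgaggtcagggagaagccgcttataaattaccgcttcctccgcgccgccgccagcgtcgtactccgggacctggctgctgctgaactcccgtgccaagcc
Slc12a7: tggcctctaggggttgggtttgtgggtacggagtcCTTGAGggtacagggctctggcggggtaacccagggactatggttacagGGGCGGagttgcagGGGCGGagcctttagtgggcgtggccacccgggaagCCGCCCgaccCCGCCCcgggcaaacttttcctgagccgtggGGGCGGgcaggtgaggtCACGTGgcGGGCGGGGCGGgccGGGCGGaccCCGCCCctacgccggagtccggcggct
Slc16a3 held 1 AP-1 site, 232 to 226 bases before the start, and none of the other motifs. Slc6a6 held 3 GC boxes. Slc12a7 held 9 GC boxes, the NKX2-1 core 215 to 210 bases before the start, and ACGTG on both strands around 57 to 53 bases before it. Of the 105 members, 88 matched a promoter in the RefSeq table. ACGTG was in 28.4% of these and in 16.6% of the 33469 promoters of the table, the AP-1 site in 11.4% and 6.34%, the NKX2-1 core in 22.7% and 13.3%, and the GC box in 44.3% and 30.5%. The median GC content was 59.2% for the members and 51.2% for the table. Unlike the background used elsewhere, the table was not limited to genes measured on the arrays. The part of this in the motif shares was not tested.

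Control probe sets at both ends of a transcript give a check on the RNA. For beta-actin, the 3' signal less the 5' signal was -0.33 to -0.08 on the cultured arrays and 0.32 to 0.43 on the fresh TII arrays (difference -0.53, two-sided exact permutation p = 0.0571, the smallest that 3 against 4 arrays allow, 0.128 adjusted over 9 tests). For GAPDH it was 0.30 to 0.45 against 0.47 to 0.57 (difference -0.13, exact permutation p = 0.0571, again the smallest possible). For hexokinase it was 1.13 to 1.21 against 1.04 to 1.28 (difference -0.02, exact permutation p = 0.857). Between fresh TI and fresh TII cells the differences were -0.04 for beta-actin, 0.03 for GAPDH and 0.17 for hexokinase (exact permutation p = 0.514, 0.657 and 0.0857). Between fresh TI and cultured cells the differences were 0.50 for beta-actin, 0.16 for GAPDH and 0.19 for hexokinase (exact permutation p = 0.0571, 0.114 and 0.0571). Their part in the culture differences was not tested.

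Some genes listed as markers of other cells rose in culture and others fell. Of 14 fibroblast and smooth muscle markers, 3 were called higher and 1 lower than in fresh TII cells (all genes 20.5% and 14.0%), with summed log2 signals of 82.7 to 89.6 and 76.4 to 79.9. The 3 were the actin-binding protein Tagln, at 5.03 ± 0.12, the elastic fibre protein Fbln5, at 3.18 ± 0.12, and smooth muscle actin Acta2, at 0.47 ± 0.11. The lower one was Eln, at -0.64 ± 0.21. Of 11 macrophage and leukocyte markers, 3 were higher and 3 lower, with sums of 59.5 to 69.4 and 67.2 to 67.9. The higher ones were Mmp12 (3.46, 5.01 and 6.18 on cultured arrays 1, 2 and 3, difference 1.90 ± 0.43), Fcgr2b (3.71, 5.09 and 6.0, difference 1.78 ± 0.38) and Itgam (0.57 ± 0.13). The lower ones were Cd74, at -3.62 ± 0.32, Lyz2, at -2.45 ± 0.35, and Ccl3, at -1.27 ± 0.36. Cd74 and Lyz2 had their highest means in fresh TII cells, at 11.03 and 12.86, as the TII markers did. Whether their signal came from leukocytes or from TII cells was not tested. On cultured arrays 1, 2 and 3 Slc16a3 was 7.31, 7.78 and 8.01, and Slc12a7 was 8.03, 8.19 and 8.32. Slc3a1 was 6.26, 6.41 and 6.55, and Slc15a4 was 6.07, 6.32 and 6.49. Other orders were seen for Slc6a6 (8.02, 7.97 and 8.93), Slc19a1 (7.20, 7.44 and 7.08) and Slc1a3 (6.48, 5.70 and 5.97). The part of these markers in the rises of Slc16a3, Slc6a6, Slc12a7 and the other carriers was not tested.

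**Figure D3:**
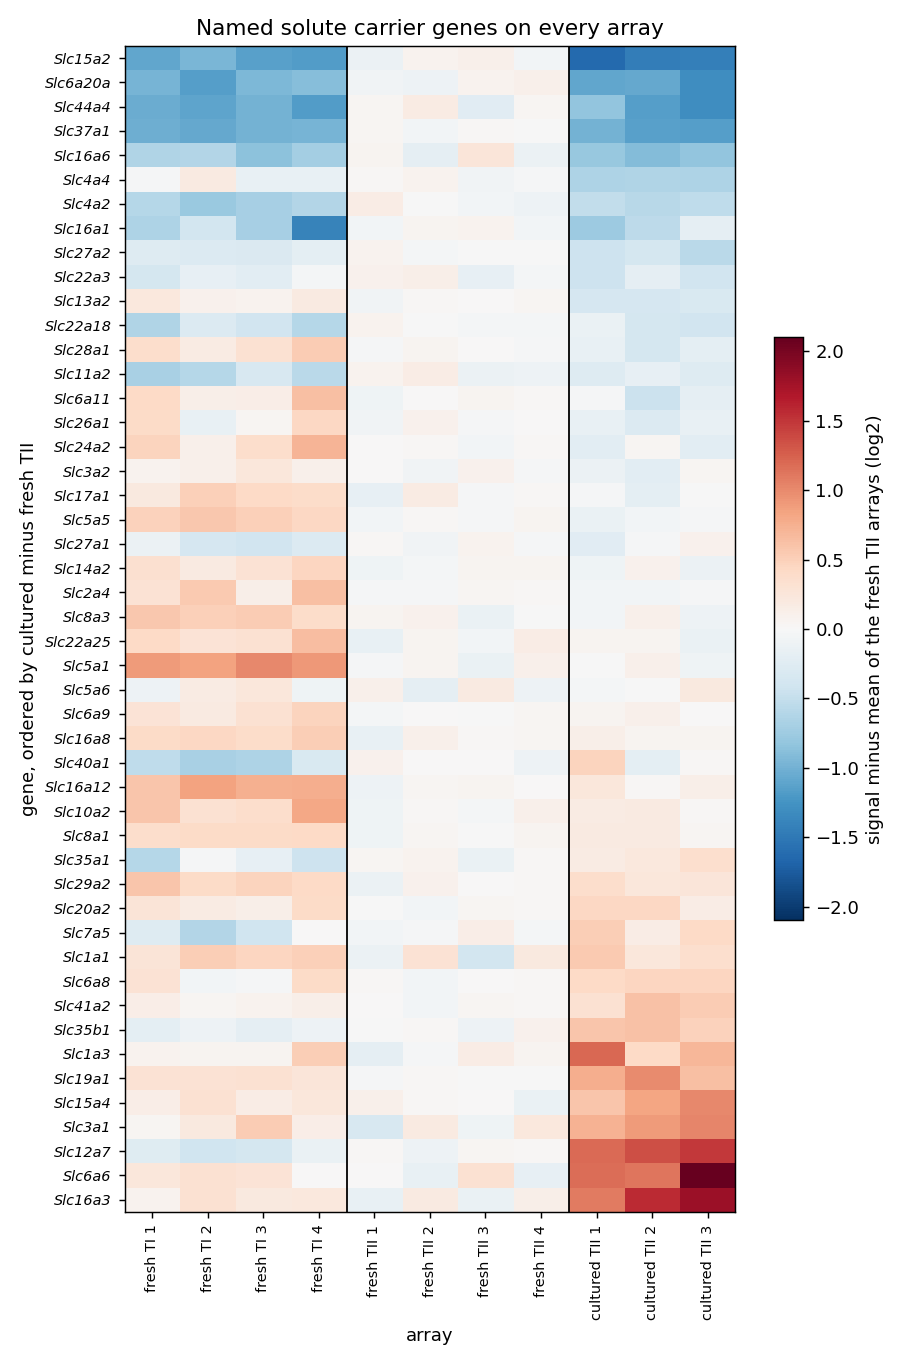
Signal of the 48 named solute carrier genes on the 11 arrays (columns, by group), as the difference from the mean of the 4 fresh TII arrays (log2; red above, blue below), with rows ordered by the difference in culture. The top 5 rows, led by Slc15a2 at -1.50 in culture, are blue in both fresh TI and cultured cells, and the bottom 3 rows, ending with Slc16a3 at 1.48, are deep red on the cultured arrays.

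Higher signal in TI cells was led by Slc5a1, the sodium-glucose cotransporter. It gave 7.36, 7.31, 7.47 and 7.37 in fresh TI, 6.44, 6.53, 6.32 and 6.57 in fresh TII and 6.45, 6.57 and 6.38 in cultured cells. Every TI array was above every TII array, fresh or cultured. TI cells exceeded fresh TII by 0.91 ± 0.07 (1.88-fold, adjusted p = 6.28e-07), while culture differed by 0.00 ± 0.08 (adjusted p = 0.982). The other Slc5a1 probe set gave 0.90 ± 0.10 and 0.00 ± 0.11.

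Slc16a12, a creatine carrier of the monocarboxylate family, was the other gene at least 1.5-fold higher in TI cells. It was dim on all arrays, with 3.53, 3.79, 3.69 and 3.71 in fresh TI, 2.83, 2.99, 3.0 and 2.95 in fresh TII and 3.18, 2.96 and 3.06 in cultured cells. The TI arrays did not overlap with the others. The difference was 0.74 ± 0.08 from fresh TII (adjusted p = 6.97e-06) and 0.61 ± 0.08 from culture (adjusted p = 6.2e-05).

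The substrate classes follow, and each count can be read against the shares over all genes. These were 33.0% higher and 21.2% lower in TI cells and 20.5% and 14.0% in culture. For TI against cultured cells they were 34.2% and 25.8%. Sugar and nucleotide sugar carriers numbered 12, of which 4 were higher and 4 lower in TI cells, 1 was higher and 1 lower in culture, and 4 were higher and 3 lower in TI than in cultured cells. Beside Slc5a1 and Slc37a1, Slc2a4, the insulin-responsive glucose carrier, was higher in TI cells by 0.40 ± 0.10 (adjusted p = 0.00412) and by 0.34 ± 0.08 on its other probe set. Slc35b1, a nucleotide carrier of the endoplasmic reticulum, rose in culture by 0.56 ± 0.07 (adjusted p = 4.19e-05) and by 0.70 ± 0.06 on its other probe set. Slc35a1, which brings CMP-sialic acid into the Golgi, was -0.31 ± 0.11 in TI cells (adjusted p = 0.0342), but its dimmer probe set was called the opposite way at 0.31 ± 0.09 (adjusted p = 0.0148), and the first call was lost without any 1 of 5 arrays (fresh TII 1, 2 or 4, fresh TI 1 or 4; adjusted p 0.0677 to 0.105).

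Among the 8 carboxylate carriers, 2 were higher and 2 lower in TI cells, and 1 was higher and 2 lower in culture. Slc16a1, the widely expressed lactate and pyruvate carrier, had its highest signal in fresh TII cells. Its values were 7.11, 7.23, 7.25 and 7.11 in fresh TII, 6.53, 6.79, 6.47 and 5.78 in fresh TI and 6.42, 6.62 and 6.98 in cultured cells. Every fresh TII array was above the rest, and fresh TI array 4 was far below the others. The difference was -0.78 ± 0.18 in TI cells (adjusted p = 0.00332) and -0.50 ± 0.20 in culture (adjusted p = 0.0686), which became called without cultured array 3 or fresh TI array 2 or 4 (-0.65 to -0.50, adjusted p 0.00608 to 0.0445). Its other probe set was called in both, at -0.88 ± 0.17 and -0.66 ± 0.18.

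Slc16a8, a lactate carrier known from retinal pigment epithelium, was higher in TI cells by 0.43 ± 0.07 (adjusted p = 0.000279). Slc13a2, the sodium-coupled carrier of citrate and other dicarboxylates, was 7.57 to 7.69 on the fresh TII and 7.30 to 7.32 on the cultured arrays, a difference of -0.34 ± 0.07 (adjusted p = 0.00133). Neither gene reached 1.5-fold. The chaperones that carry lactate carriers to the cell surface are listed with the partner genes.

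Of the 15 amino acid carriers, 5 were higher and 2 lower in TI cells, 2 were higher and 1 lower in culture, and 4 were higher and 3 lower in TI than in cultured cells. Slc1a3, a glutamate and aspartate carrier, gave 5.09, 5.25, 5.44 and 5.34 in fresh TII and 6.48, 5.70 and 5.97 in cultured cells, and TI cells gave 5.36, 5.34, 5.33 and 5.80. The cultured arrays lay above the fresh TII arrays and, apart from cultured array 2, above fresh TI array 4. The rise in culture was 0.77 ± 0.17 (adjusted p = 0.00282), and the 3 other probe sets gave 1.89 ± 0.13, 0.69 ± 0.14 and -0.05 ± 0.08, the last on a probe set with signal near 2.

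Slc7a5 is the light subunit of the large neutral amino acid exchanger and Slc3a2 its heavy subunit. Slc7a5 was 7.23, 7.26, 7.42 and 7.24 in fresh TII, 7.02, 6.67, 6.87 and 7.30 in fresh TI and 7.81, 7.45 and 7.71 in cultured cells. TI and fresh TII overlapped through fresh TI array 4. Its difference was -0.69 ± 0.13 between TI and cultured cells (adjusted p = 0.00081) and -0.33 ± 0.12 between TI and fresh TII (adjusted p = 0.0402), a call lost without any fresh TII array or fresh TI array 1, 2 or 3 (adjusted p 0.0609 to 0.107). In culture it gave 0.37 ± 0.13 (adjusted p = 0.0503), called without cultured array 2 or fresh TI array 2 or 4 (adjusted p 0.0144 to 0.0295).

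Slc3a2 was bright and varied less, at 8.52, 8.55, 8.69 and 8.55 in fresh TI, 8.46, 8.37, 8.53 and 8.43 in fresh TII and 8.32, 8.22 and 8.49 in cultured cells. TI minus cultured was 0.23 ± 0.08 (adjusted p = 0.026), a call lost without cultured array 1 or 2 or fresh TI array 3 (adjusted p 0.0653 to 0.12). The other Slc3a2 probe set gave 0.16 ± 0.10 (adjusted p = 0.178).

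Slc1a1, the neuronal and epithelial glutamate carrier, was higher in TI cells by 0.43 ± 0.13 (adjusted p = 0.0175), a call lost without fresh TII array 1 (0.39, adjusted p = 0.0529). In culture it gave 0.38 ± 0.15 (adjusted p = 0.066), called without fresh TII array 2 or 4 (0.44 to 0.48, adjusted p 0.0216 to 0.0492). Its other probe sets were called in both comparisons, at 0.29 ± 0.09 and 0.68 ± 0.15 in TI cells and at 0.49 ± 0.10 and 0.78 ± 0.16 in culture. Slc7a1, the cationic amino acid carrier, was singled out after its values were seen. Its brightest probe set gave 0.05 ± 0.13 in culture, but its other probe sets gave 1.17 ± 0.13 (4.56, 4.74, 4.60 and 4.61 in fresh TII against 6.13, 5.47 and 5.80 in culture) and 1.11 ± 0.11.

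The class of lipids, choline and acetyl-CoA, set by gene family, held 3 members. All 3 were lower in TI than in fresh TII cells, and 2 of them in culture. Slc44a4 is in this class through its family, and its substrate was not measured here. Slc27a2, which carries and activates very long-chain fatty acids, was 7.45, 7.34, 7.37 and 7.37 in fresh TII, 7.12, 7.09, 7.08 and 7.18 in fresh TI and 6.95, 7.02 and 6.81 in cultured cells. The groups did not overlap. Its differences were -0.26 ± 0.07 in TI cells (adjusted p = 0.00539) and -0.45 ± 0.07 in culture (adjusted p = 0.000214). TI minus cultured was 0.19 ± 0.07 (adjusted p = 0.0323), lost without cultured array 1 or 3 or fresh TI array 1 or 4 (adjusted p 0.0566 to 0.145).

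Slc27a1, a long-chain fatty acid carrier, was lower in TI cells, at -0.30 ± 0.09 (adjusted p = 0.0121) and gave -0.06 ± 0.09 in culture (adjusted p = 0.679). Its direct difference between TI and cultured cells, -0.23 ± 0.09 (adjusted p = 0.0466), was lost without any 1 of 9 arrays, all but fresh TI 1 and cultured 1 (adjusted p 0.055 to 0.197). Slc44a4, given with the genes high in fresh TII cells, had the largest differences of the 3.

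The 18 carriers of sodium, potassium, chloride, bicarbonate, calcium and iodide had 8 higher and 2 lower in TI cells, 1 higher and 2 lower in culture, and 10 higher and 1 lower in TI than in cultured cells. Slc4a2, the basolateral chloride-bicarbonate exchanger, gave 8.18, 8.03, 7.98 and 7.93 in fresh TII, 7.43, 7.25, 7.33 and 7.42 in fresh TI and 7.51, 7.45 and 7.5 in cultured cells. Fresh TII was above both groups without overlap. The differences were -0.67 ± 0.07 (adjusted p = 7.58e-06) and -0.54 ± 0.08 (adjusted p = 9.93e-05), and -0.84 ± 0.09 and -0.68 ± 0.09 on its other probe set.

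Slc4a4, the sodium-bicarbonate cotransporter, changed in culture and not detectably between the fresh types. It was 5.86, 5.91, 5.76 and 5.80 in fresh TII, 5.81, 6.02, 5.68 and 5.67 in fresh TI and 5.18, 5.20 and 5.18 in cultured cells. The cultured arrays were lowest without overlap. The differences from fresh TII were -0.65 ± 0.09 in culture (adjusted p = 6.26e-05) and -0.04 ± 0.08 in TI cells (adjusted p = 0.692).

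The sodium-calcium exchangers Slc8a1 and Slc8a3 were higher in TI cells by 0.40 ± 0.06 (adjusted p = 0.000277) and 0.49 ± 0.08 (adjusted p = 0.000218), and the potassium-dependent exchanger Slc24a2 by 0.41 ± 0.11 (adjusted p = 0.00773). The 4 other Slc8a1 probe sets gave 0.26 ± 0.09 and 0.35 ± 0.11, both called, and 0.18 ± 0.12 (adjusted p = 0.225) and 0.00 ± 0.07 (adjusted p = 0.986). Slc5a5, the sodium-iodide symporter of thyroid, was 6.53, 6.60, 6.54 and 6.48 in fresh TI, 5.98, 6.07, 6.02 and 6.09 in fresh TII and 5.90, 5.99 and 6.02 in cultured cells, higher in TI by 0.50 ± 0.06 (adjusted p = 2.81e-05). The TI arrays stood apart from all others for Slc5a5. None of these 4 was called in culture.

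**Figure D4:**
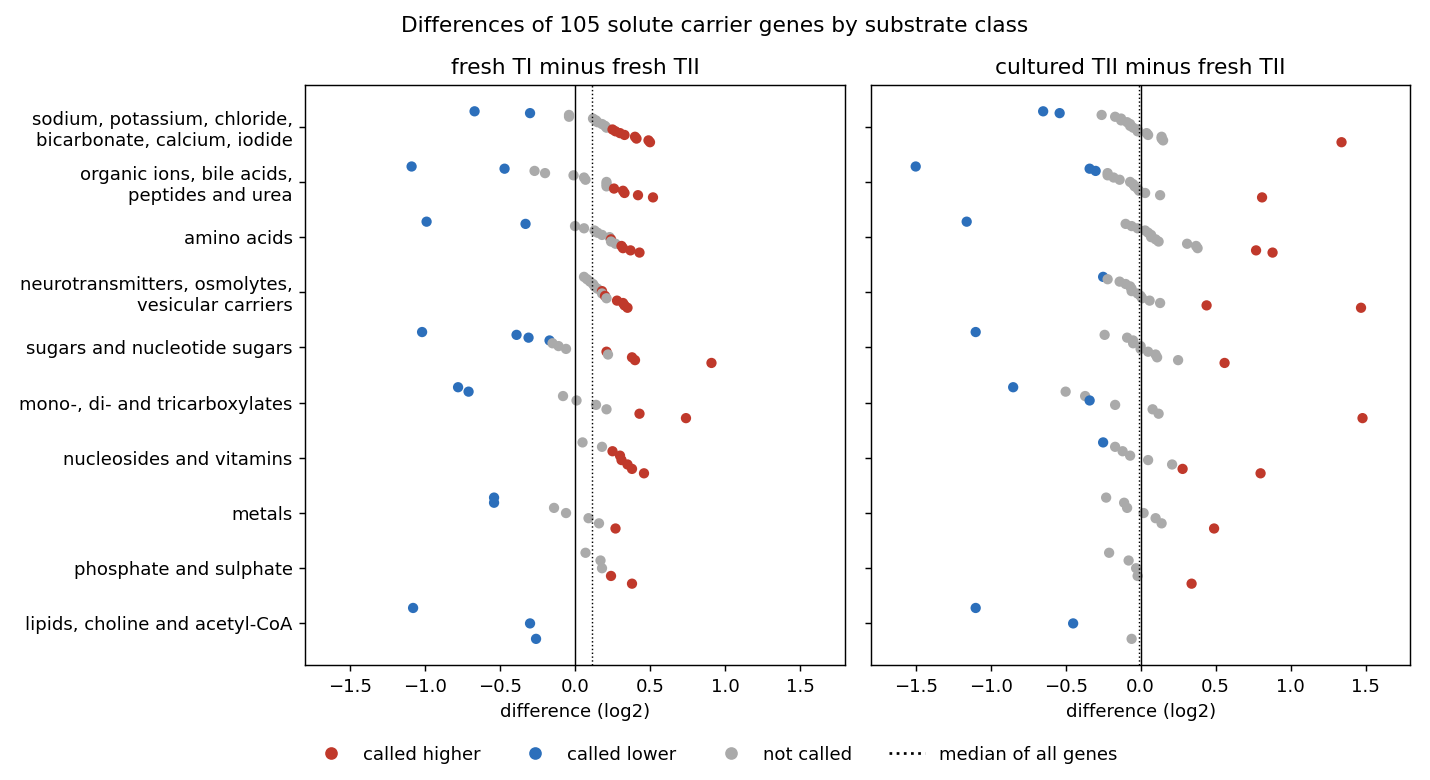
Differences (log2, horizontal axes) of the 105 solute carrier genes in fresh TI minus fresh TII cells (left) and cultured minus fresh TII cells (right), by substrate class. Each point is a gene, coloured by its call, and the dotted line is the median of all genes, 0.11 on the left and -0.01 on the right. On the left most called points are small and positive, from Slc15a2 at -1.09 to Slc5a1 at 0.91; on the right most points lie near 0 with a few far points on each side.

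Metal carriers numbered 7. In TI cells 1 was higher and 2 lower, and in culture 1 was higher and none lower. Slc11a2, the proton-coupled importer of ferrous iron, was 6.80, 6.89, 6.60 and 6.62 in fresh TII, 6.04, 6.13, 6.39 and 6.16 in fresh TI and 6.46, 6.55 and 6.46 in cultured cells. TI arrays were lowest without overlap. TI cells were lower than fresh TII, at -0.54 ± 0.09 (adjusted p = 0.00034), and its other probe sets gave -0.25 ± 0.08 and -0.76 ± 0.09. TI minus cultured was -0.31 ± 0.10 (adjusted p = 0.0157), lost without cultured array 2 (-0.28, adjusted p = 0.0573).

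Slc40a1, the iron exporter ferroportin, was 4.28, 4.21, 4.20 and 4.09 in fresh TII, 3.66, 3.51, 3.55 and 3.88 in fresh TI and 4.67, 3.99 and 4.22 in cultured cells. Every TI array was below all fresh TII and cultured arrays, which overlapped. The gene is also strongly expressed by macrophages. It was lower in TI cells, at -0.54 ± 0.13 (adjusted p = 0.00383) and at -0.46 ± 0.14 on its other probe set. Of 11 measured macrophage and leukocyte markers, 2 were higher in TI cells (Cd4 and Ptprc) and 3 lower (Cd14, Cd74 and Lyz2). These are 18.2% and 27.3%, against 33.0% and 21.2% of all genes. Their summed log2 signal was 64.0 to 68.8 in TI and 67.2 to 67.9 in fresh TII cells. Cd74 and Lyz2 had their highest means in fresh TII cells, and the part of these markers was not tested. Slc41a2, a magnesium carrier, rose in culture by 0.49 ± 0.08 (adjusted p = 0.000269).

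Of 14 carriers of neurotransmitters, osmolytes and vesicle contents, 6 were higher in TI cells and none lower (42.9% higher, median 0.18, against 33.0% and 0.11 over all genes). All 14 differences lay between 0.06 and 0.35. Slc6a9, a glycine carrier, was at 8.51, 8.41, 8.55 and 8.69 in fresh TI, 8.19, 8.23, 8.21 and 8.27 in fresh TII and 8.29, 8.33 and 8.24 in culture, a difference of 0.32 ± 0.07 (adjusted p = 0.00247). Slc6a11, a GABA carrier, was higher by 0.33 ± 0.12 (adjusted p = 0.0321), lost without fresh TII array 1, 2 or 4 or fresh TI array 1 or 4 (adjusted p 0.0556 to 0.0865). In culture 2 were higher and 1 lower. Beside Slc6a6, the creatine carrier Slc6a8 rose by 0.44 ± 0.11 (adjusted p = 0.00517); its TI minus cultured difference of -0.29 ± 0.11 (adjusted p = 0.0325) was lost without any cultured array or fresh TI array 2 or 3 (adjusted p 0.0613 to 0.0836).

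Nucleoside and vitamin carriers had 6 of 8 higher in TI cells and none lower, with a median difference of 0.30 (all genes 33.0% higher, 21.2% lower, median 0.11). Slc29a2, the equilibrative nucleoside carrier, was 7.24, 7.06, 7.13 and 7.07 in fresh TI, 6.53, 6.74, 6.67 and 6.69 in fresh TII and 7.02, 6.90 and 6.91 in cultured cells. TI was highest and fresh TII lowest, without overlap. It was higher by 0.46 ± 0.07 in TI cells (adjusted p = 0.000178) and by 0.28 ± 0.08 in culture (adjusted p = 0.0114), the latter lost without cultured array 1 (0.24, adjusted p = 0.0548).

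Slc28a1, the sodium-coupled pyrimidine nucleoside carrier, was the other member with opposite calls. It was 6.66, 6.47, 6.62 and 6.83 in fresh TI, 6.27, 6.35, 6.30 and 6.27 in fresh TII and 6.14, 5.93 and 6.09 in cultured cells. The 3 groups did not overlap. It was higher in TI cells by 0.35 ± 0.08 (adjusted p = 0.00354), and lower in culture, at -0.25 ± 0.09 (adjusted p = 0.0469), the latter lost without any 1 of 8 arrays, all but cultured 1 and fresh TI 2 and 4 (adjusted p 0.0583 to 0.201). Slc5a6, the biotin and pantothenate carrier, gave 0.05 ± 0.11 in TI cells and 0.05 ± 0.12 in culture, and 0.27 ± 0.10 (adjusted p = 0.0395) in TI cells on its other probe set.

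Of 15 carriers of organic ions, bile acids, peptides and urea, 5 were higher and 2 lower in TI cells, and 1 was higher and 3 lower in culture. Slc10a2, the apical bile acid carrier of ileum, was higher in TI cells by 0.52 ± 0.10 (adjusted p = 0.00119). Slc22a25, of the organic anion family, was higher by 0.42 ± 0.10 (adjusted p = 0.00317) and the urea carrier Slc14a2 by 0.32 ± 0.08 (adjusted p = 0.00459). None of the 3 was called in culture.

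On the other side, Slc22a18, an organic cation carrier-like gene, was lower in TI cells, at -0.47 ± 0.09 (adjusted p = 0.000923). In culture it gave -0.30 ± 0.10 (adjusted p = 0.0284), lost without fresh TII array 1 or 2 or cultured array 2 or 3 (adjusted p 0.057 to 0.109). Slc22a3, a polyspecific organic cation carrier, gave -0.34 ± 0.10 in culture (adjusted p = 0.0186), lost without fresh TII array 1 or 2 or cultured array 1 or 3 (adjusted p 0.0525 to 0.0781), and 0.07 ± 0.09 on its dimmer probe set. In TI cells its -0.20 ± 0.09 (adjusted p = 0.0866) became called without fresh TII array 3 or fresh TI array 4 (adjusted p 0.0391 to 0.0429).

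Phosphate and sulphate carriers had 2 of 5 higher in TI cells and 1 in culture, and none lower. Slc17a1, a phosphate and urate carrier of kidney, was higher in TI cells by 0.38 ± 0.09 (adjusted p = 0.00394), with 0.05 ± 0.08 and 0.14 ± 0.09 on its dimmer probe sets. Slc20a2, a sodium-phosphate carrier, gave 0.24 ± 0.08 in TI cells (adjusted p = 0.0249), lost without fresh TII 1 or 2 or fresh TI 1 or 4 (adjusted p 0.0527 to 0.0652), and 0.34 ± 0.09 in culture (adjusted p = 0.00971), lost without cultured array 2 (0.29, adjusted p = 0.0519). Slc26a1, a sulphate exchanger, was higher in TI than in cultured cells by 0.39 ± 0.13 (adjusted p = 0.019), lost without cultured array 2 or fresh TI array 1 (adjusted p 0.0564 to 0.0684).

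Fibroblast markers moved with the genes higher in TI cells. Of 14 fibroblast and smooth muscle markers, 8 were called higher in TI than in fresh TII cells, with summed log2 signals of 86.9 to 91.2 and 76.4 to 79.9, or 57.1% against 33.0% of all genes. Their part in the carrier signal was not tested. Of 5 endothelial markers 2 were higher, with summed signals of 28.8 to 30.6 and 28.5 to 28.8 and a median difference of 0.12, near the 0.11 of all genes.

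The small positive differences in TI cells can be set beside brightness. Of the 49 members below the median mean signal of probe sets, 5.49, 15 were higher and 4 lower in TI cells, with a median difference of 0.17. All genes below that brightness had 37.4% higher and 11.1% lower, with a median of 0.16. Of the 56 brighter members, 24 were higher and 13 lower, with a median of 0.20, against 29.7% and 28.8% of all brighter genes and a median of 0.05. In culture 11 of the 56 brighter members were higher and 10 lower (19.6% and 17.9%, against 28.2% and 17.7% of all brighter genes), and of the 49 dimmer ones 1 was higher and 3 lower (2.04% and 6.12%, against 10.3% and 9.18%).

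Genes with several probe sets mostly had them called the same way between the fresh types, where the brightest one was called. Of 37 such members, 20 were called in TI minus fresh TII, and in 14 of these every other probe set was called the same way. For culture the counts were 6 and 3. These counts leave out members called only on a dimmer probe set. Between the fresh types these were Slc12a4, Slc18a3, Slc22a7, Slc2a3, Slc35b1, Slc5a6 and Slc7a1. For culture they were Slc16a1, Slc1a1, Slc2a4, Slc37a4 and Slc7a1, so the culture counts also depend on the choice of probe set.

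Genes that work with these carriers were described from lists of partners, organic anion carriers and ABC transporters. Partner genes were chosen after their values were seen. Of 16 measured partners and regulators, 3 were higher and 6 lower in TI cells (18.8% and 37.5%, against 33.0% and 21.2% of all genes). In culture 3 were higher and 6 lower (18.8% and 37.5%, against 20.5% and 14.0%). Bsg (basigin), which chaperones the lactate carriers, had means of 10.72 in fresh TI, 9.71 in fresh TII and 10.68 in cultured cells, higher by 1.0 ± 0.08 (adjusted p = 6.33e-07) and 0.97 ± 0.09 (adjusted p = 1.75e-06). The related chaperone Emb rose in culture by 0.43 ± 0.11 (adjusted p = 0.00773). In culture both chaperones and Slc16a3 were called higher, but the related carriers were not. There Slc16a1 gave -0.50 ± 0.20, not called, with -0.66 ± 0.18, called, on its other probe set. Slc16a7 gave -0.37 ± 0.13 in culture, not called. In TI cells, where Bsg was higher, Slc16a1 was lower, at -0.78 ± 0.18.

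Tfrc, the transferrin receptor that brings iron to the endosome where Slc11a2 works, rose in culture by 1.63 ± 0.21 (adjusted p = 4.21e-05) and was lower in TI cells, at -0.60 ± 0.20 (adjusted p = 0.0209). Nfe2l2, the antioxidant regulator, was lower, at -1.75 ± 0.20 in TI cells and -0.76 ± 0.22 in culture. Ggt1, which cleaves extracellular glutathione into carrier substrates, was lower, at -0.71 ± 0.07 and -0.26 ± 0.08, and Car2, the carbonic anhydrase that supplies bicarbonate, was lower too, at -0.84 ± 0.20 and -0.98 ± 0.21. Car2 and Slc4a2 were both lower in TI cells and in culture. The other measured carbonic anhydrase of the list, Car4, was called in neither, at 0.25 ± 0.12 (adjusted p = 0.0858) and -0.08 ± 0.12 (adjusted p = 0.698).

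The organic anion carriers of the Slco family, outside the Slc names, had 4 of 6 measured genes higher in TI cells and 1 lower. These are 66.7% and 16.7%, against 33.0% and 21.2% of all genes. The exception, Slco1a5, was dim and followed the order of Slc15a2, with means of 3.39 in fresh TII, 2.29 in fresh TI and 1.90 in cultured cells, and differences of -1.10 ± 0.08 (adjusted p = 3.57e-07) and -1.49 ± 0.09 (adjusted p = 4.21e-08). Of 14 measured ABC transporters, 5 were higher and 2 lower in TI cells (35.7% and 14.3%, against 33.0% and 21.2% of all genes). In culture 1 was higher and 1 lower (7.14% each, against 20.5% and 14.0%). Abcd3, which imports long-chain acyl-CoA into peroxisomes, was lower, at -1.82 ± 0.10 (adjusted p = 1.78e-08) and -1.20 ± 0.11 (adjusted p = 1.85e-06), the same direction as Slc27a2.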

How the data were processed

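Total RNA was measured on 11 Affymetrix rat arrays, per the labels. The deposited log2 values, made by the authors, are 1 per array for each probe set; their summarisation, background correction and normalization are not stated in the labels. As to the base of the logarithm, the maximum, 13.16, would exceed the 65535 of a 16-bit scanner as a natural logarithm. No further scaling was applied. Of 8799 probe sets, 59 controls were left out and 8740 tested: 7006 named 1 gene, 308 several and 1426 none. Scanner files and detection calls were not used here. The number of arrays limits the precision.

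Group means over all 11 arrays were fitted with limma 3.58.1 (lmFit, eBayes, two-sided) in R 4.3.3, with Benjamini-Hochberg adjustment over the 8740 probe sets of each comparison, and tested on simulated data. Controls were compared with scipy 1.17.1. The members, substrate classes and lists were chosen with earlier results of these data known. Named were, per comparison, the 10 highest and 10 lowest called members without overlap of arrays, the 3 largest differences of each class, members with opposing calls or probe sets, and the 10 brightest of each group. Partner genes were chosen after their values were seen. Same-numbered arrays were not paired: their deviations correlated between -0.20 and 0.28. Alternatives are given in the closing section. Sequences are from RefSeq, GRCr8.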

Additional observations from a re-analysis of the deposited data

Results flagged for a closer look

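Among the 48 named solute carrier genes, 96 groups of 4 arrays were screened for 1 array far from the other 3, and 2 were found. Chance alone flags about 1 in 20 groups. For Slc1a3, fresh TI array 4 was at 5.80 while the other 3 lay between 5.33 and 5.36, a gap of 0.926 of the range of the group. For Slc6a8, fresh TII array 2 was at 6.32 while the others lay between 6.38 and 6.40, a gap of 0.831 of a narrow range.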

How the results depend on the processing

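Over the named genes, 3252 values were recomputed, and 3088 kept their side of the threshold, 109 lost the call, 54 gained it and 1 reversed. A change of direction was counted only where the main or the recomputed value was called. The reversal was Slc35a1 in TI minus fresh TII, 0.0 (adjusted p = 0.989) with the mean of its probe sets, which were called in opposite directions. Of 144 named results, 26 changed their call when 1 array was left out.

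Members at least 1.5-fold higher in TI than in fresh TII cells were 2, and became 1 with standard deviations matched, 4 with quantile normalization, and 1 without the dimmest probe sets (lower quartile) or the dimmer part of probe sets. Against cultured cells the 4 became 1 with median centring and 7 with quantile normalization. Removing the dimmer part, which leaves fewer genes, changed the members higher in TI from 39 to 24 against fresh TII and from 45 to 25 against cultured cells (29 at an adjusted p under 0.01). Over all probe sets the higher calls became 1337 and 1375 without the dimmer part, and 1796 and 2022 at that stricter threshold.

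Leaving out each array in turn gave 32 to 45 members higher and 14 to 18 lower in TI against fresh TII, 12 to 13 and 9 to 15 in culture, and 35 to 53 and 13 to 16 in TI against cultured cells. With a block for the replicate number, members called were 40 higher and 17 lower in TI cells, 13 and 13 in culture, and 40 and 15 in TI against cultured cells; the numbers share no stated animal or day. Signal over background is not known, which limits what can be said of dim genes.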
